A study of Hydra viridissima with 4 samples.

Results

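Scaffolds 15 to 20 of the Hydra viridissima assembly carried few open regions for their length. Peaks of 4 libraries that shared at least 1 bp were merged into union regions, and the 676 regions on the 6 scaffolds numbered 15 to 20 are described here, out of 117973 in all. They are compared with the 117217 regions on scaffolds 1 to 14. The remaining 80 regions lay on scaffolds with higher numbers. The rule used only the scaffold number, but these scaffolds drew attention because peaks were sparse there and more frequent in symbiotic lists, so both properties are given as descriptions.

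The libraries were made from whole green hydra, H. viridissima clone 2, either aposymbiotic, which means free of the intracellular algae, or green/symbiotic, which means carrying them. Each condition had 2 biological replicates, called here Apo R1 and Apo R2 for the aposymbiotic and Green R1 and Green R2 for the symbiotic libraries, and each library came from 50 large animals without buds or gonads, kept at 24 °C and last fed 2 days before. All animals shared the clone, the hydra medium and the antibiotics Pen/Strep before the assay. A whole animal mixes all its cell types, so a peak in fewer cells and a weaker peak in all cells cannot be told apart.

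ATAC-seq uses the transposase Tn5, which cuts and tags DNA where it is not covered by nucleosomes, so that peaks mark accessible DNA such as promoters and enhancers. In green hydra the algae live in vacuoles inside the epithelial cells of the gastrodermis, the inner layer that lines the gut, and pass sugar to the host. A scaffold is a stretch of assembled genome, which may be a whole chromosome or a piece that could not be joined to one. Genes, repeats and sequences of these scaffolds were not analysed here, so regions are named by scaffold and position, counted from 1 in the coordinates of the deposited lists. Which assembly version they used is not stated in these sources.

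The lists held between 21481 and 87128 peaks, and both replicate 2 lists were longer than both replicate 1 lists. How many reads each library had is unknown. The genome-wide background, the mean number of tags that the peak caller expected at any position, was 9.39 tags in Apo R1, 6.80 in Green R1, 16.7 in Apo R2 and 13.5 in Green R2. Fold enrichment is the authors' value for each peak, the number of tags at the summit plus 1 over the local background plus 1, and it serves here for description and for ranks inside each list. On the genome-wide background, the weakest peaks called had 22, 18, 32 and 27 tags in the same order.

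Peaks on scaffolds 15 to 20 were spread thinly. Up to their last peaks the 6 scaffolds spanned 28.8 Mb, which was 9.52% of the length of scaffolds 1 to 20, and held 0.573% of all union regions. Counted over the length up to the last peak, the density was 4.68 peaks per Mb in Apo R1, 7.98 in Green R1, 8.50 in Apo R2 and 17.2 in Green R2. On scaffolds 1 to 14 the same lists had 77.8, 112.4, 285.8 and 316.1 peaks per Mb. The sparse scaffolds thus lay 16.6-fold and 14.1-fold lower in Apo R1 and Green R1, and 33.6-fold and 18.4-fold lower in replicate 2. The mean log2 difference in density was -4.28 ± 0.55 (SD over 4 libraries).

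**Figure D1:**
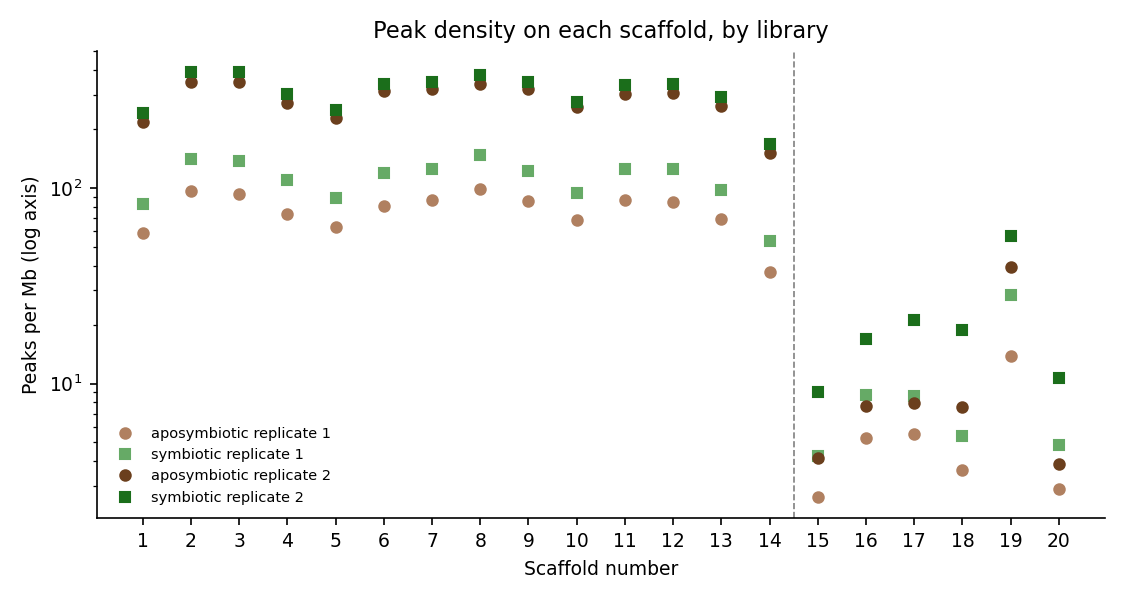
Peak density (peaks per Mb, log axis; length taken up to the last peak) of scaffolds 1 to 20, 1 point per library, with a dashed line between scaffolds 14 and 15. Every point right of the line except the replicate 2 points of scaffold 19 lies below all points left of it, and scaffold 19 reaches 56.9 peaks per Mb in Green R2.

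The 6 scaffolds were not alike. Scaffold 15, with peaks up to 10.6 Mb, held 143 regions or 13.5 per Mb, and scaffold 16, up to 9.48 Mb, held 217 or 22.9 per Mb. The shorter scaffolds 17 and 18 held 84 and 67 regions, 29.0 and 24.1 per Mb. Scaffold 19, up to 2.02 Mb, was the densest with 151 regions or 74.7 per Mb, and scaffold 20, up to 1.04 Mb, held only 14 regions. Density on scaffolds 1 to 14 ranged from 229.1 to 528.8 regions per Mb, so scaffold 19 lay below that range as well.

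Regions stood alone more often on the sparse scaffolds. The median distance to the nearest other region was 4153 bp, against 357 bp on scaffolds 1 to 14, and 36.1% of regions had a neighbour within 1 kb, against 80.8%. On scaffolds 15, 16, 17, 18 and 20 between 21.4% and 29.8% had such a neighbour. On scaffold 19 the share was 68.2% and the median distance 397 bp, close to the 337 to 380 bp of the single large scaffolds. Of 291 windows of 100 kb on the 6 scaffolds, 90 held no region (30.9%), against 7.39% on scaffolds 1 to 14.

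Scaffold 15 had the longest stretch without any region, 1444.3 kb at 5856872 to 7301181, which was longer than the 1238.5 kb found at most on a large scaffold. Scaffold 16 had an empty stretch of 645.8 kb at 3365365 to 4011144 and scaffold 18 one of 491.0 kb at 632050 to 1123025. Regions of scaffold 19 were gathered in its second part. The window at 1500001 to 1600000 held 28 regions, 5 of them called in all 4 lists and 15 in 1 list. Lists differed in that window, with 8 regions in Apo R1, 7 in Green R1, 18 in Apo R2 and 22 in Green R2. Its 28 regions, equal to 280.0 per Mb, were few beside the densest window of each large scaffold, which held 70 to 86. The next windows by count were also on scaffold 19, with 21 regions at 900001 to 1000000 and 20 at 1600001 to 1700000, whereas no window of the other 5 scaffolds held more than 12.

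**Figure D2:**
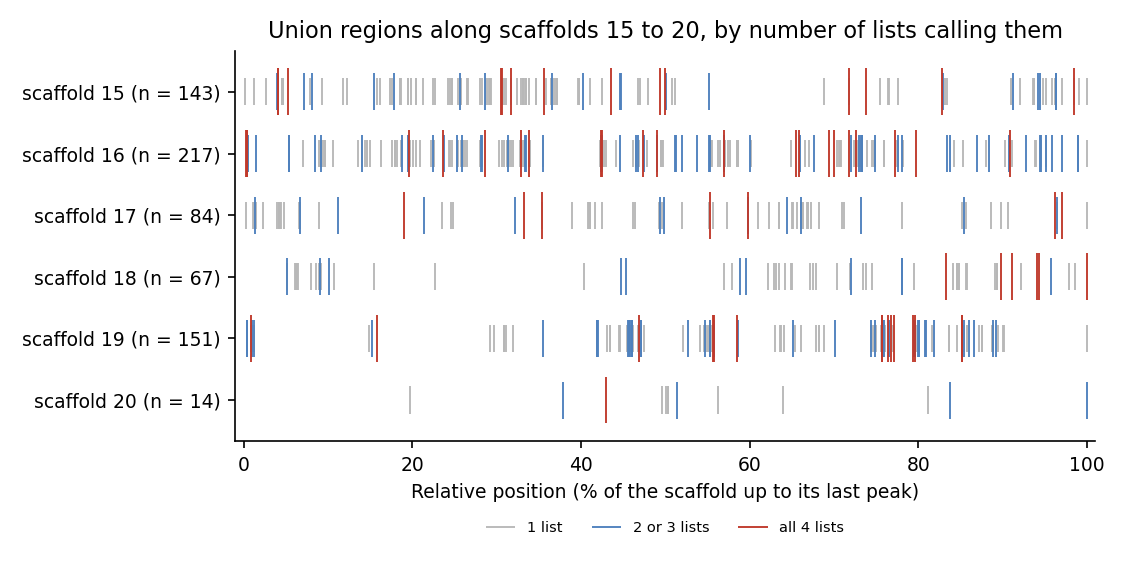
Position of each union region on scaffolds 15 to 20 as a percentage of the scaffold up to its last peak, with grey, blue and red ticks for regions called in 1, in 2 or 3, and in all 4 lists. Regions called in all 4 lists occur on each scaffold (14, 24, 7, 6, 15 and 1 on scaffolds 15 to 20), and scaffold 15 is empty over a long stretch past its middle.

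Peaks of the sparse scaffolds stood mostly on the lowest background the caller allows. By default MACS3 tests each peak against the genome-wide background or, where the surroundings hold more tags, against a higher local one. On scaffolds 15 to 20 the local background was above the genome-wide level at 12.6% of peaks in Apo R1, 15.2% in Green R1, 11.02% in Apo R2 and 13.1% in Green R2. On scaffolds 1 to 14 the shares were 61.1%, 65.8%, 68.4% and 69.4%. The difference was -53.2 ± 4.29 percentage points (SD over 4 libraries) and had the same sign in 4 of 4 libraries (two-sided exact sign-flip permutation p = 0.12, the smallest that 4 libraries allow). A local background rises with the tags around a peak, so this share is tied to how sparse peaks are. The p-value therefore adds no separate support. Scaffold 19 carried most of the exceptions. Its shares were 35.7%, 42.1%, 21.2% and 36.5% in the order above, below the lowest single large scaffold, which had 54.1%, 56.8%, 60.0% and 59.8%. On scaffolds 17, 18 and 20 no peak of Apo R1, Green R1 or Apo R2 stood on a raised background. In Green R2 the shares were 6.56% on scaffold 17 and 5.77% on scaffold 18, with none on scaffold 20. Without scaffold 19 the difference was -59.9 points.

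The median peak was also narrower in each list. Its width on scaffolds 15 to 20 was 148 bp in Apo R1, 135 bp in Green R1, 128 bp in Apo R2 and 137 bp in Green R2, against 158, 137, 149 and 164 bp on scaffolds 1 to 14. The mean log2 difference was -0.15 ± 0.11 (SD over 4 libraries), with the lower value on the sparse scaffolds in 4 of 4 libraries (two-sided exact sign-flip permutation p = 0.12). In Green R1 the medians differed by no more than 2 bp. Among peaks on the genome-wide background alone the log2 difference was -0.17, and among those of -log10 q 5 or more it was -0.30. Peaks with more than 1 summit made up 14.1%, 10.4%, 22.9% and 17.7% of the peaks, against 15.3%, 13.98%, 27.5% and 29.2% on the large scaffolds, a difference of -5.22 ± 4.39 percentage points (exact sign-flip permutation p = 0.12). Without Green R2 this difference was -3.14 points.

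**Figure D3:**
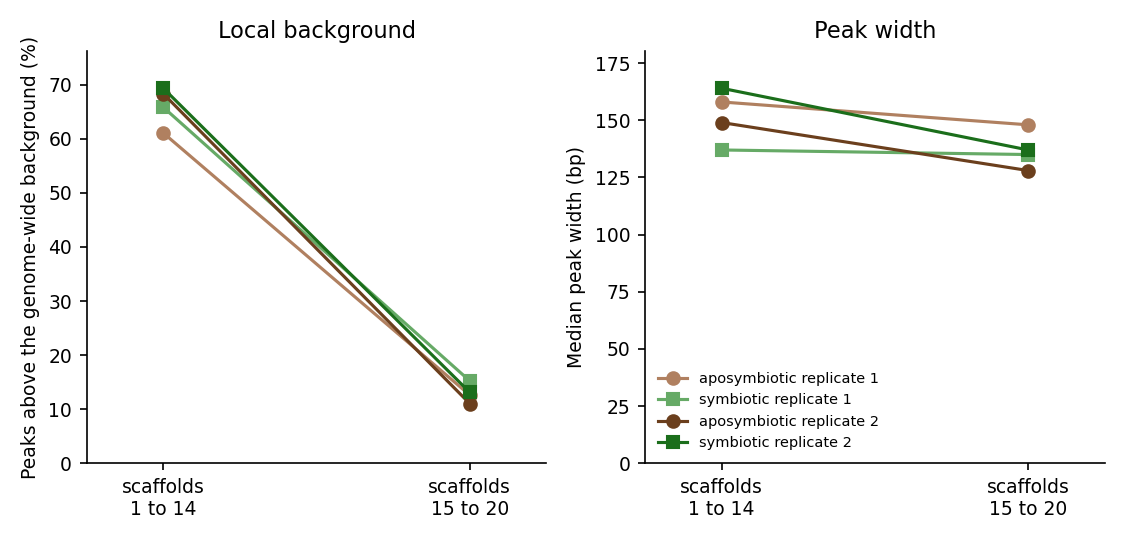
Left, share of peaks whose local background was above the genome-wide level, and right, median peak width in bp, for scaffolds 1 to 14 and 15 to 20, with 1 line per library. All 4 libraries are lower on scaffolds 15 to 20 in both panels, by about the same amount for the background and by an amount that differs between libraries for the width.

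Peaks on the sparse scaffolds were not weak for their lists, except in Green R2. The median fold was 3.08 in Apo R1, 3.20 in Green R1 and 2.49 in Apo R2, which put the median peak at percentiles 72.3, 65.8 and 71.2 of those lists. In Green R2 it was 2.42, at percentile 44.1. The medians of scaffolds 1 to 14 were at percentiles 49.8 to 50.04. The mean difference was 13.4 ± 13.2 percentile points (exact sign-flip permutation p = 0.25), positive in 3 of 4 libraries. A fold rises where the background is low, so the tags themselves were ranked too. The median peak then stood at percentiles 57.8, 53.1, 46.6 and 19.3, against 47.4, 53.1, 51.2 and 50.9 on the large scaffolds, and the mean difference turned to -6.44 ± 17.9 points (SD over 4 libraries; exact sign-flip permutation p = 0.75). By tags the sparse scaffolds ranked higher in Apo R1, equal in Green R1 and lower in replicate 2, and the negative mean rested on Green R2, without which it was 1.97 points. Among peaks on the genome-wide background alone, the median was 31 tags against 27 in Apo R1, 24 against 23 in Green R1, 43 against 41 in Apo R2 and 33 against 38 in Green R2. The fold percentiles of those peaks differed by 3.65 ± 18.5 points (SD over 4 libraries; exact sign-flip permutation p = 0.75), and by 12.4 points without Green R2. The highest folds on the 6 scaffolds were 9.14, 11.02, 7.18 and 8.85 in Apo R1, Green R1, Apo R2 and Green R2, against 23.9, 29.7, 21.8 and 23.0 on scaffolds 1 to 14. A maximum depends on the number of peaks, which was 135 to 496 here and 21308 to 86580 there. Among single large scaffolds the lowest maximum was closer, at 10.8, 13.2, 10.8 and 13.3 in the same order. Whether the maxima differ beyond the number of peaks was not tested.

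Most regions were called in 1 list, here as on the large scaffolds. Of the 676, 453 (67.0%) were called in 1 list, 99 (14.6%) in 2, 57 (8.43%) in 3 and 67 in all 4. On scaffolds 1 to 14 the shares for 1, 2 and 3 lists were 52.0%, 26.8% and 12.5%. The 67 regions make up 9.91%, beside 8.69% of all union regions. Regions called in Green R2 alone formed the largest class, with 308 regions (45.6%), beside 26.7% of all union regions. They were weak. Their median was 32 tags and a fold of 2.28, where the weakest peak called on the genome-wide background had 27 tags. Such regions of scaffolds 1 to 14 had the same median fold of 2.28, with 38 tags. Regions called in both replicate 2 lists and neither replicate 1 list, which made up 20.1% of all union regions, were 37 here (5.47%). Without Green R2, 19.8% of the remaining regions were called in all of the other lists, and without Apo R1 15.2% were. The same shares on scaffolds 1 to 14 were not computed.

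For 3 of the 4 lists the order of the other lists by shared regions was the same as on the large scaffolds, and for Apo R1 it was reversed. Apo R1 and Green R1 shared 96 regions, 72.2% and 42.7% of their regions here, against 55.8% and 39.2% on scaffolds 1 to 14. Apo R2 and Green R2 shared 147 regions, 61.5% and 29.8%, against 63.8% and 56.5%. Green R1 and Green R2 shared 131 regions, 58.2% and 26.6%, against 81.1% and 28.03%. Apo R1 and Apo R2 shared 92, or 69.2% and 38.5%, against 79.4% and 21.8%. Apo R1 and Green R2 shared 91, or 68.4% and 18.5%, against 80.9% and 19.7%. Apo R2 and Green R1 shared 115, or 48.1% and 51.1%, against 28.1% and 72.1%. These shares depend on the lengths of the lists and were not tested. The replicate 2 list was 1.81 times as long as the replicate 1 list here in aposymbiotic and 2.16 times in symbiotic animals, against 3.67 and 2.81 times on scaffolds 1 to 14.

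**Figure D4:**
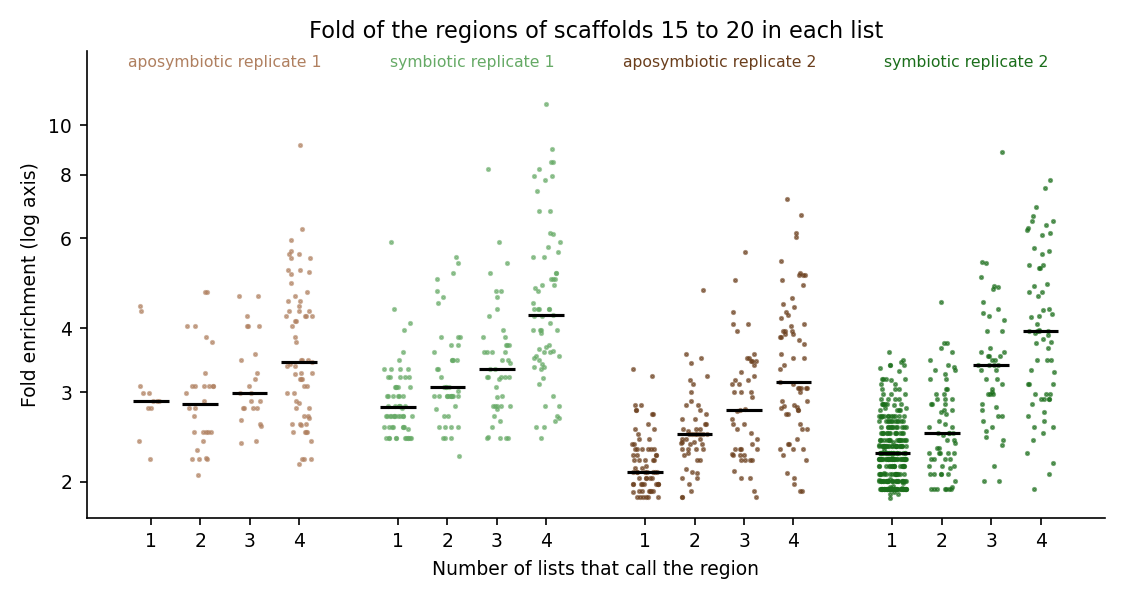
Fold enrichment (log axis) of the regions of scaffolds 15 to 20 in each of the 4 lists, split by how many lists call the region, with 1 point per region and a black line at the median. In each list the median is highest for regions called in all 4 lists (3.43, 4.24, 3.14 and 3.94), and the dense column of Green R2 holds its 308 regions called in no other list.

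The 67 regions called in all 4 lists had the highest median fold in each list, although the highest fold in Green R2, 8.85, was in a region of 3 lists and folds of the 67 went down to 1.92 in Apo R2. Their median fold was 3.43 in Apo R1, 4.24 in Green R1, 3.14 in Apo R2 and 3.94 in Green R2. On scaffolds 1 to 14 regions of all 4 lists had medians of 2.98, 3.48, 3.01 and 3.47. In tags the medians were 35, 33, 60 and 56, against 34, 30, 61 and 58. Median width was 266 bp here and 410 bp there, so these shared regions matched those of the large scaffolds in tags within 3 tags but were narrower.

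The strongest shared region by its lowest percentile was on scaffold 15 at 3251893 to 3252168. Its fold was 6.26 in Apo R1 (64 tags), 11.02 in Green R1 (85 tags), 4.47 in Apo R2 (78 tags) and 6.36 in Green R2 (91 tags). Both symbiotic folds were above both aposymbiotic folds, and the local background equalled the genome-wide level in all 4 lists. The region on scaffold 16 at 6586396 to 6586542 had folds of 5.68 and 4.58 in Apo R1 and Apo R2 and of 8.46 and 4.70 in Green R1 and Green R2. Here the groups overlapped, and the nearest other region was 53893 bp away.

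The region at 8774786 to 8774953 of scaffold 15 had folds of 5.97 and 5.09 in Apo R1 and Apo R2 and 5.89 and 7.54 in Green R1 and Green R2, again overlapping. The first region of scaffold 16, at 21100 to 21262, had 5.58 and 5.14 in Apo R1 and Apo R2 and 7.94 and 6.50 in Green R1 and Green R2, without overlap. Scaffold 17 held 2 of the 8 strongest shared regions, at 1023272 to 1023447 with folds of 5.49 and 4.07 against 8.20 and 5.60, and at 2807975 to 2808334 with 5.49 and 3.56 against 6.79 and 5.67. In both, the symbiotic folds were the higher ones, and Apo R1 came close to Green R2 by fold. By percentile Apo R1 stood at 94.9 in both regions, against 98.5 and 98.6 in Green R2.

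The region on scaffold 15 at 428017 to 428365 had more tags in Apo R2 than any other region of these scaffolds, 131. Its folds were 5.17 and 7.18 in Apo R1 and Apo R2 and 6.13 and 7.80 in Green R1 and Green R2, so replicate numbers and not conditions were apart. It was the only one of the 8 on a raised local background, with 12.5 and 10.4 tags in Apo R1 and Green R1. The last of the 8, on scaffold 16 at 2241946 to 2242196, had folds of 5.10 and 4.24 against 7.82 and 6.29 and did not overlap.

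Regions chosen as the strongest of each scaffold included some that were not called everywhere. On scaffold 16 at 4935199 to 4935311 the folds were 8.20 (63 tags), 5.65 (99 tags) and 8.85 (127 tags) in Green R1, Apo R2 and Green R2, and Apo R1 had no peak. It was 113 bp wide and 76752 bp from its nearest neighbour. The last region of scaffold 18, at 2779898 to 2780261, had 9.14 in Apo R1 (94 tags), the highest of that list here, 8.97 in Green R1 (69 tags), 3.39 in Apo R2 (59 tags) and 6.23 in Green R2 (89 tags). Its 2 aposymbiotic values were thus the highest and the lowest of the 4.

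Scaffold 17 also held a strong region at 2785371 to 2785576, with folds of 4.14 and 6.05 in Apo R1 and Apo R2 and 7.94 and 6.92 in Green R1 and Green R2. On scaffold 19 the strongest region, at 1720495 to 1721178, was called in 3 lists with folds of 3.42, 3.96 and 5.37, and on scaffold 20 the region at 532108 to 532423 had 2.43, 3.17 and 4.22, in Green R1, Apo R2 and Green R2. Neither had a peak in Apo R1. The widest region of all 676 was on scaffold 19 at 1556286 to 1558307, 2022 bp wide and inside the densest window. It was called in all 4 lists, with folds of 3.25 and 4.05 in Apo R1 and Apo R2 and 4.80 and 4.88 in Green R1 and Green R2, on a raised background of 10.7, 9.20, 17.8 and 18.5 tags in Apo R1, Green R1, Apo R2 and Green R2.

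Symbiotic folds are higher over regions of all 4 lists in general, so conditions were compared by the percentile of each fold within its list. Both symbiotic percentiles were above both aposymbiotic ones in 15 of the 67 regions (22.4%), beside 14.04% of all regions called in 4 lists. The reverse held in 2 of 67 (2.99%), beside 8.80%. The other 50 overlapped. No region was tested singly, since the exact permutation of 2 libraries per condition cannot give a p below 0.33.

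The symbiotic list had more peaks than the aposymbiotic list on each of the 6 scaffolds in both replicate numbers. Scaffolds 15 to 20 together held 135 peaks in Apo R1, 230 in Green R1, 245 in Apo R2 and 496 in Green R2. Within a replicate number the ratio of symbiotic to aposymbiotic peaks ran from 15 against 10 peaks (scaffold 18) to a ratio of 2.04 (scaffold 19) in replicate 1, and from 1.44 (scaffold 19) to 2.75 (scaffold 20, with 11 against 4 peaks) in replicate 2. On the single large scaffolds it ran from 1.38 to 1.49 and from 1.07 to 1.13. All 6 sparse scaffolds therefore lay above every large scaffold in both numbers, narrowly so for scaffold 18 in replicate 1, and scaffold 19 was the highest of the 6 in replicate 1 and the lowest in replicate 2.

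**Figure D5:**
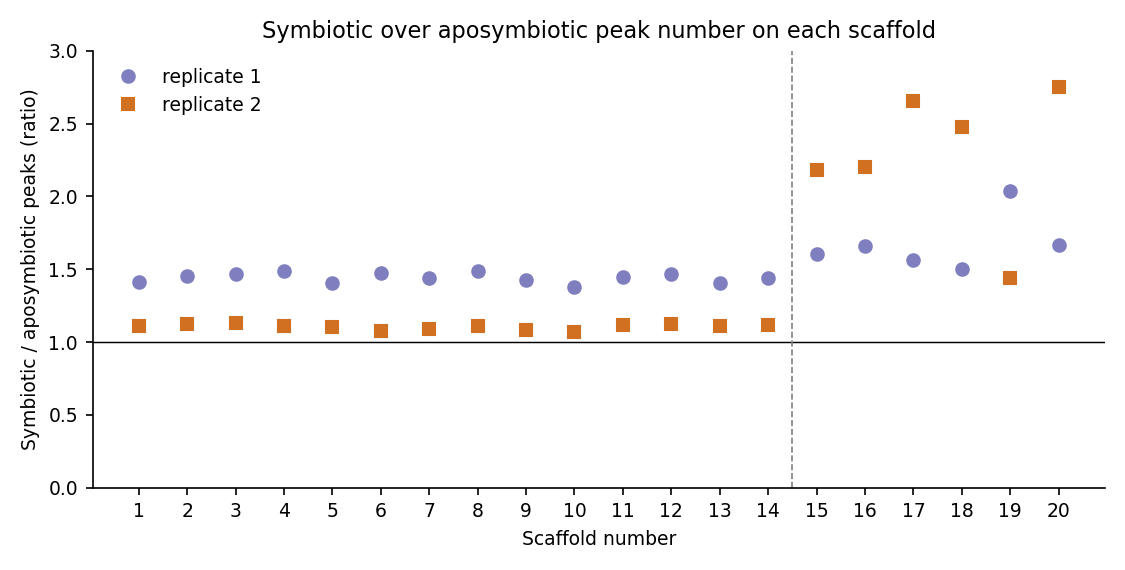
Number of symbiotic over number of aposymbiotic peaks on scaffolds 1 to 20 within replicate 1 (circles) and replicate 2 (squares), lists as deposited, with a dashed line between scaffolds 14 and 15. Ratios of scaffolds 1 to 14 stay within 1.38 to 1.49 and 1.07 to 1.13, and all 6 scaffolds right of the line lie above them in both replicates.

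Libraries of the same condition differed as well. The aposymbiotic libraries averaged 190.0 ± 77.8 peaks (SD, n = 2) and the symbiotic ones 363 ± 188 peaks (SD, n = 2), a log2 difference of 0.89, and the groups overlapped. This difference ranged from 0.34 without Green R2, over 0.46 without Apo R1, to 1.45 without Green R1. As a share of each list, the sparse scaffolds held 0.628% of the peaks in Apo R1 and 0.312% in Apo R2, and 0.740% and 0.569% in Green R1 and Green R2. The groups overlapped here too, and the log2 difference of the share was 0.55. It was 0.05 without Apo R2, 0.36 without Green R1 and 1.06 without Apo R1.

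The higher symbiotic share depended on which peaks were kept. When only peaks with a -log10 q of at least 5 were kept, the sparse scaffolds held 79 and 113 peaks in Apo R1 and Green R1 and 142 and 215 in replicate 2. The ratios of 1.43 and 1.51 then lay beside 1.45 and 1.51 on scaffolds 1 to 14. The share of each list was 0.996% and 0.981% in replicate 1 and 0.424% and 0.426% in replicate 2, and its log2 difference turned to -0.01. With every list shortened to its 21481 strongest peaks the ratios were 1.30 in replicate 1 and 1.01 in replicate 2. On scaffolds 1 to 14 they were then 0.998 and 1.00. That shortening moved the share up from 0.312% to 0.489% in Apo R2 and down from 0.569% to 0.493% in Green R2. In Green R1 the share rose from 0.740% to 0.815%, and in Apo R1, the shortest list, it stayed at 0.628%. The log2 difference of the share was then 0.19. Why the share changed was not tested.

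Regions of 1 condition, called in both of its lists and in neither of the other, were about as frequent as elsewhere. There were 24 symbiotic regions (3.55%), beside 3.14% of all union regions, and 8 aposymbiotic regions (1.18%), beside 1.02%. Symbiotic regions lay on scaffolds 15 to 19 (7, 8, 3, 2 and 4), and aposymbiotic regions on scaffolds 15 to 17 (4, 3 and 1). With a library left out the rule asks for fewer lists, so higher counts follow from the rule itself. Leaving out Apo R1 gave 31 symbiotic and 77 aposymbiotic regions, and leaving out Green R1 gave 332 and 15. Leaving out Apo R2 gave 57 and 20, and leaving out Green R2 gave 89 and 18. Of the 332, 308 were called in Green R2 alone, a class of 45.6% here and 26.6% on scaffolds 1 to 14. Of the 77, 69 were called in Apo R2 alone, a class of 10.2% here and 20.6% there. Of peaks with a -log10 q of 5 or more, 12 symbiotic and 5 aposymbiotic regions were made. Shares over all union regions were not computed for these alternatives.

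The median symbiotic region had a fold of 2.95 and 22 tags in Green R1 and a fold of 2.52 and 35.5 tags in Green R2. Ranked by the lower percentile, the strongest lay at 8953430 to 8953518 of scaffold 16, where Green R1 had a fold of 4.48 (34 tags) and Green R2 one of 3.32 (47 tags). Others on scaffold 16 were at 4434981 to 4435096 with 3.84 and 3.67, at 2396918 to 2397057 with 4.61 and 3.18, and at 5234438 to 5234690 with 3.72 and 2.97. Scaffold 18 held one at 1260755 to 1260872 with 3.84 and 2.97, and scaffold 15 one at 4270749 to 4270915 with 3.59 and 2.91. The lowest folds called on the genome-wide background were 2.21 and 1.86 in Apo R1 and Apo R2. Of the 24 regions, 6 had folds at least 1.5 times those limits in both replicate numbers, beside 228 of 3673 on scaffolds 1 to 14. These folds say nothing of the tags in the aposymbiotic libraries. For all 24 regions, an aposymbiotic peak under the limit therefore cannot be told from none.

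The 8 aposymbiotic regions had median folds of 2.69 and 3.05. The strongest was on scaffold 17 at 1430084 to 1430177, with 3.75 (38 tags) and 2.83 (49 tags) in Apo R1 and Apo R2. Scaffold 16 held regions at 2976676 to 2976821 with 2.98 and 3.00, at 141020 to 141130 with 2.89 and 3.17, and at 8248962 to 8249125 with 2.502 and 2.32. Scaffold 15 held one at 5856752 to 5856871 with 3.08 and 2.43, which was the last region before the longest empty stretch, and one at 9987134 to 9987326 with 2.502 and 3.56. The lowest symbiotic folds called on the genome-wide background were 2.43 and 1.94, and none of the 8 regions reached 1.5 times both. On scaffolds 1 to 14, 36 of 1196 aposymbiotic regions did.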

How the data were processed

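The authors deposited 1 narrowPeak list per ATAC-seq library (paired reads of 50 bp). The tools named in the submitters' processing notes are MACS3 3.0.4, deepTools, Bowtie2 2.5.4 and Trim Galore 0.6.10, without settings or a genome build. The deposited lists give for each summit a fold enrichment (a ratio), the -log10 p-value, the -log10 q-value (above 2 throughout) and a score, the whole part of 10 times that last value.

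Summits listed under the same start and end were taken as 1 peak, described by the strongest. The fold and the p-value of a peak together give its tags and its local background, and the pair found returned the listed -log10 p within 0.001 for 100% of peaks. Tags carry counting error, and nothing is known of a region in a list that does not call it. A background more than 0.1% above the genome-wide one counted as raised. Groups and replicate numbers come from the labels. Peak names carry a date-like tag that differs between all 4 libraries, and what it stands for is not stated, so no batch was modelled. Nothing says that replicates came from separate cultures, so p-values refer only to these 4 libraries.

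The members, rules and tests were chosen with earlier results of these data known. Named regions are the 8 of all 4 lists with the highest lowest percentile of fold, the 6 of each condition with the highest lower percentile, the region of each scaffold with the highest median percentile in at least 2 lists, the widest region and the 100 kb window with most regions. Alternatives are given under the processing heading of the closing section and include 200 bp summit windows and 50% coverage. Python 3.11.15, numpy 2.4.6, pandas 2.3.3, scipy 1.17.1 and matplotlib 3.10.9 were used, and the procedures were tested on simulated lists. Sequences, motifs and genes were not analysed here.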

Additional observations from a re-analysis of the deposited data

Results flagged for a closer look

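Peaks on scaffolds numbered above 20 fall outside the comparison of scaffolds 15 to 20 with 1 to 14. They formed 80 union regions, of which 54 lay on scaffold 23 and 17 on scaffold 86. Such peaks numbered 38 in Apo R1, 39 in Green R1, 48 in Apo R2 and 52 in Green R2.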

How the results depend on the processing

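Settings that leave out scaffold 19, keep only peaks on the genome-wide background or rank tags in place of folds, and the last pair without Green R2, were chosen after seeing the data. Density, width, local background and the share of peaks with several summits kept their direction under every alternative run for them, while width and several summits changed in size. The log2 difference in width was -0.30 with peaks of -log10 q 5 or more and -0.32 with lists of equal length. The difference in several summits was -9.93 points with lists of equal length, -9.44 without scaffold 19, -8.24 on the genome-wide background and -3.52 at the stricter q. The median distance to the nearest region was 9708 bp at the stricter q and 10668 bp with equal lengths. The symbiotic surplus in the share of peaks reversed to a log2 difference of -0.0089 with peaks of -log10 q 5 or more, and the higher rank of folds reversed to -6.44 percentile points with tags in place of folds. The negative rank by tags rested on Green R2, without which it was 1.97. On the genome-wide background the fold rank difference was 3.65, and 12.4 without Green R2. The share difference was 0.19 with equal lengths. The causes were not tested. At the stricter q, regions called in all 4 lists made up 12.5%, regions of 1 condition were 12 symbiotic and 5 aposymbiotic, and 23.6% of regions had a neighbour within 1 kb. With lists of equal length these values were 15.7%, 14 symbiotic and 11 aposymbiotic regions, and 18.9%. When peaks had to cover 50% of a region, 5.77% were called in all 4 lists. Without scaffold 16 there were 5 aposymbiotic regions. Shares over all union regions were not computed at these settings, so no difference from the rest of the genome can be read from them.

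Leaving out 1 library at a time gave 12.2% to 19.8% of regions called in all remaining lists, 31 to 332 symbiotic regions and 15 to 77 aposymbiotic regions. Fewer lists have to agree in these settings, so higher values follow from the rule itself. With the replicate block the log2 differences were 0.89 for the number and 0.55 for the share of peaks. In this balanced design they equal the values without the block by arithmetic, so the block is no check of them. In log2 fold, libraries with the same number deviated from their group means with a correlation of 0.128 over the 10256 regions called in all 4 lists, and 2 pairs are too few to show a pairing. The limit of each list restricts what can be seen. On the genome-wide background no peak had fewer than 22 tags in Apo R1, 18 in Green R1, 32 in Apo R2 or 27 in Green R2.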
